A study of Arabidopsis thaliana with 6 samples.

Results

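The WRKY genes of *Arabidopsis thaliana* were examined for binding by 2 zinc finger transcription factors of the WIP family, TT1 and NTT. A gene was taken as a member when its symbol or a synonym in the TAIR10.1 annotation of RefSeq was WRKY and a number. This gave 72 genes of 27444 nuclear protein-coding genes. Of these, 67 carried the name as their symbol and 5 as a synonym, namely ZAP1 (WRKY1), TTR1 (WRKY16), TTG2 (WRKY44), RRS1 (WRKY52) and ABO3 (WRKY63). The ChIP libraries were made from 7-day-old seedlings in the Col-0 accession that carried a *Dex:TT1-GFP* or a *Dex:NTT-GFP* construct and had been treated with 1 µM dexamethasone (Dex) for 8 h. All samples shared this treatment. In both lines the fusion is placed behind a *pOp6* promoter and is driven by an activator expressed from the *35S* promoter. The authors name this activator LhG4 in their methods, and LhGR where they describe the control line. Expression of the fusion after Dex is thus not under the control of the *TT1* or *NTT* promoter. Chromatin of pooled seedlings was precipitated with an anti-GFP antibody, giving 1 TT1 library and 2 NTT libraries, labelled NTT rep1 and NTT rep2. Each was sequenced beside its own input, for which no peak list was used here.

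The lists held 12908 peaks for TT1, 16167 for NTT rep1 and 7447 for NTT rep2, so that NTT rep2 stood apart by its short list. Every peak has a summit, the base with the highest signal, and a fold enrichment, the ratio of ChIP signal to local background that the authors' peak caller gave at that summit. A gene is called bound when at least 1 summit lies from 2 kb upstream of its start site to its end. The lists do not give read depth. For this reason fold enrichments are not set against each other across libraries, and a gene without a summit is one where none was detected. The percentile of a peak is the percent of peaks of the same library with a fold enrichment at or below its own. TT1 has no replicate, and no error between replicates can be given for any of its values. Distances are in bp from the start site, with a minus sign for upstream positions.

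WRKY proteins are plant transcription factors that bind the W-box through a domain with the residues WRKYGQK and a zinc finger. Group I proteins generally carry a pair of such domains, whereas those of groups II and III carry a single one, and group II is divided into IIa to IIe. Many members act in responses to pathogens, in leaf senescence and in responses to starvation and drought. Their own promoters are often rich in W-boxes and many WRKY genes are targets of other WRKY proteins. Groups were taken from the annotation notes for 50 genes and from the standard grouping for 22. The notes place WRKY23 in group I, while the standard grouping has it in IIc, and it is counted here in group I.

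The first sequences shown were picked for their W-boxes, from sites where summits recurred in all 3 libraries, and do not represent all such sites. Of 37 such sites, joined at up to 100 bp between summits, 22 held a W-box and 9 held 2 or more. The 6 windows below are those of members with several W-boxes at a shared site, with the whole window upstream of the gene and outside any other annotated gene. WRKY15 had such a site too near its start for this. Each is centered on the mean summit position of the 3 libraries and is read 5′ to 3′ on the strand of the gene, from the TAIR10.1 assembly. Capitals mark W-boxes, searched as TTGACC and TTGACT on both strands, which read GGTCAA and AGTCAA on the other one.
WRKY60, chr2:10628939-10629139, plus strand: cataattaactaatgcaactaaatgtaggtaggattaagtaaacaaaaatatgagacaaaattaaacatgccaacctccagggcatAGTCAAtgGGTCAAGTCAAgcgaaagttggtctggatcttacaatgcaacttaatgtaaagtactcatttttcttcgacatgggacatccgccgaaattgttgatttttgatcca
WRKY18, chr4:15382026-15382226, plus strand: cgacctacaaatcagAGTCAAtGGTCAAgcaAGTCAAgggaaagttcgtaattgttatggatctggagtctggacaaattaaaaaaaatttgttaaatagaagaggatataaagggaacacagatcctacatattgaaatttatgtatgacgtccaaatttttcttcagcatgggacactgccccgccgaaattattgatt
WRKY6, chr1:23020530-23020730, minus strand: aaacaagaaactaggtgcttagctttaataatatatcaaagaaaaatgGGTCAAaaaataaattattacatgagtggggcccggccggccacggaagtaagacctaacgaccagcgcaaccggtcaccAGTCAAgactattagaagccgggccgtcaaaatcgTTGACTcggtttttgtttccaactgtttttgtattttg
WRKY49, chr5:17374199-17374399, minus strand: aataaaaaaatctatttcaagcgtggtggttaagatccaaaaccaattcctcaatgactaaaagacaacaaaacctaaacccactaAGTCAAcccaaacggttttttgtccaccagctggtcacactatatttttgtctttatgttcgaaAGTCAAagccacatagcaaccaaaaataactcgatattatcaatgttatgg
WRKY11, chr4:15292519-15292719, minus strand: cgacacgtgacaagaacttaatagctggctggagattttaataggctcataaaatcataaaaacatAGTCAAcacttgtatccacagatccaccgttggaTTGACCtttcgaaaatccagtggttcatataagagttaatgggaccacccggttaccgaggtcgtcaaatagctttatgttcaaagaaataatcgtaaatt
WRKY17, chr2:10440485-10440685, minus strand: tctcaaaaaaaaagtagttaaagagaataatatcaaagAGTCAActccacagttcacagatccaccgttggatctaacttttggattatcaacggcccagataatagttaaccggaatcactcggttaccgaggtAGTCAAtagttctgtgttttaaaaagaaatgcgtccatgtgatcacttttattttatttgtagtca

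WRKY60, WRKY18 and WRKY6 had 3 W-boxes each in these windows, and WRKY49, WRKY11 and WRKY17 had 2 each. In WRKY60 and WRKY18, both of group IIa, the 3 boxes stood side by side and in the same orientation. The longest run shared by these 2 windows was 11 bases. The windows of the close relatives WRKY11 and WRKY17 shared a run of 19 bases, cacagatccaccgttggat, which lay near the boxes.

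Not every site shared by the 3 libraries held a W-box. The next windows are shown as contrasts. The site of WRKY23 had no W-box and is printed with the ABRE core ACGTG in capitals. Both matches are the palindrome CACGTG, which holds the core on each strand, so that they count as 4 matches. The site of WRKY63 (ABO3) had neither a W-box nor the other motifs searched.
WRKY23, chr2:19408546-19408746, minus strand: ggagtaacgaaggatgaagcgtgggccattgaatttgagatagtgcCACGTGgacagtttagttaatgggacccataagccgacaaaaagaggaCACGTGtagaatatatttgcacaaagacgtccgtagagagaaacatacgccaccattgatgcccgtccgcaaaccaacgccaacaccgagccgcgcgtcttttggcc
WRKY63, chr1:24846933-24847133, plus strand: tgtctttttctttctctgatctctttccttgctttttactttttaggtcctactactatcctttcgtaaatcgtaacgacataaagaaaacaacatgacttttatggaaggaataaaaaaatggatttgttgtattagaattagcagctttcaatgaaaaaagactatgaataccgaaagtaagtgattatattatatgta

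Some summits lay in the 5′ UTR next to runs of the GAGA repeat, searched as GAGAGAG on both strands. The 3 members with the most matches at a summit are shown, 30 bases each, with overlapping matches in capitals. On the printed strand, that of the gene, the tracts read CT.
WRKY27, chr5:21410872-21410901, plus strand: CTCTCTCTCTCtttcgacaaagaaaaagtc
WRKY39, chr3:1268273-1268302, minus strand: CTCTCTCTCTCTCTCacaaagaaacaaaca
WRKY51, chr5:25908361-25908390, plus strand: CTCTCTCTCTCTCTCTCTCaattatttttt

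The WRKY family was bound more often than genes at large. TT1 had a summit at 59 of the 72 members (81.9%), against 38.3% of all nuclear protein-coding genes. NTT rep1 had a summit at 59 members (81.9%), against 44.7% of all genes. NTT rep2 had one at 33 members (45.8%), against 26.8% of all genes. Both NTT libraries had a summit at 33 members, 45.8% against 24.4% of all genes. All 3 libraries had one at 32 members, 44.4% against 20.2%, and at least 1 library at 63 members, 87.5% against 52.1%. The family share was thus above the share of all genes in each library, and these shares are given as a description with no test.

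**Figure D1:**
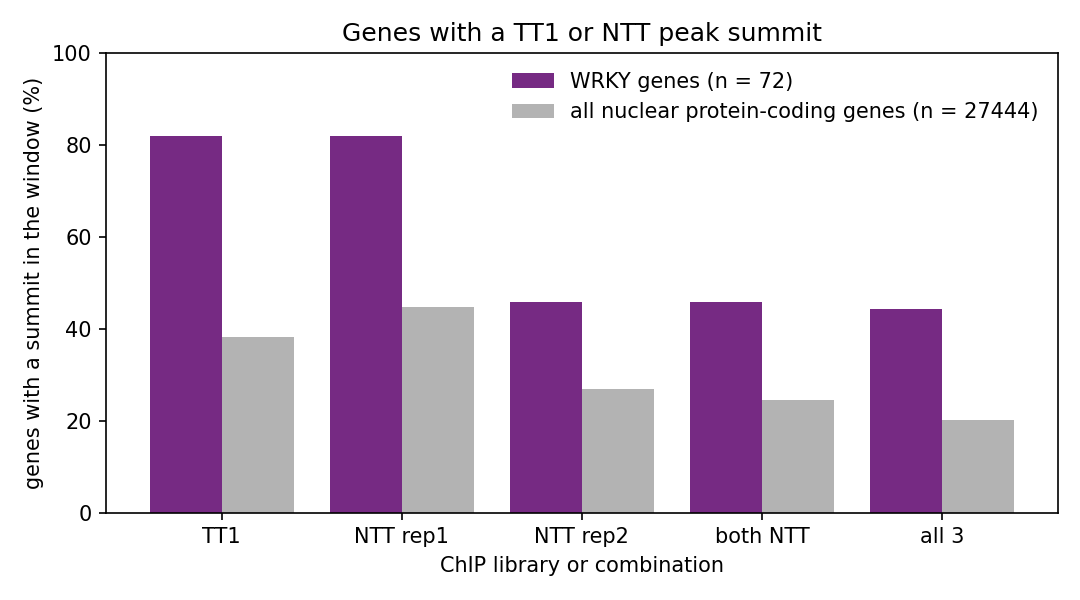
Percent of genes with a peak summit from 2 kb upstream to the gene end, for the 72 WRKY genes and all 27444 nuclear protein-coding genes, in each ChIP library and in combinations of them. The WRKY bars stand at 81.9% for TT1 and 44.4% for all 3 libraries, above the bars of all genes at 38.3% and 20.2%.

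Long upstream regions went with the family. The distance to the next protein-coding gene upstream had a median of 2970 bp at WRKY genes, against 961 bp at all genes, whereas the searched windows had like medians of 4114 and 4078 bp. Among genes with 2000 bp or more to the next gene, TT1 bound 43 of 49 members (87.8%), against 44.1% of all such genes. Among genes with a shorter distance, TT1 bound 16 of 23 members (69.6%), against 35.9% of all such genes. NTT rep1 bound 85.7 and 73.9% of the members in these 2 classes, against 48 and 43.3% of all genes. In NTT rep2 the members' shares were 42.9 and 52.2%, against 27.3 and 26.6% of all genes. The members' share was above that of all genes on both sides of this split, which was set after seeing the data. Distances within each class were not matched, and whether upstream distance bears on the family's share was not tested.

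Bound members also carried more summits each. In TT1, 55.9% of the bound WRKY genes had 2 or more summits, against 28.4% of all bound genes. The shares were 62.7% against 36.1% in NTT rep1, and 36.4% against 17.8% in NTT rep2. The highest peak of a bound member had a median percentile of 67.9 in TT1, against 57.0 over all bound genes, and of 71.3 against 58.95 in NTT rep1. In NTT rep2 the medians were 49.0 and 51.6, so that there the members' peaks were no higher than those of other bound genes. The highest fold enrichment of a member ranged from 2.60 to 8.70 in TT1, from 3.72 to 13.7 in NTT rep1 and from 2.66 to 7.52 in NTT rep2.

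**Figure D2:**
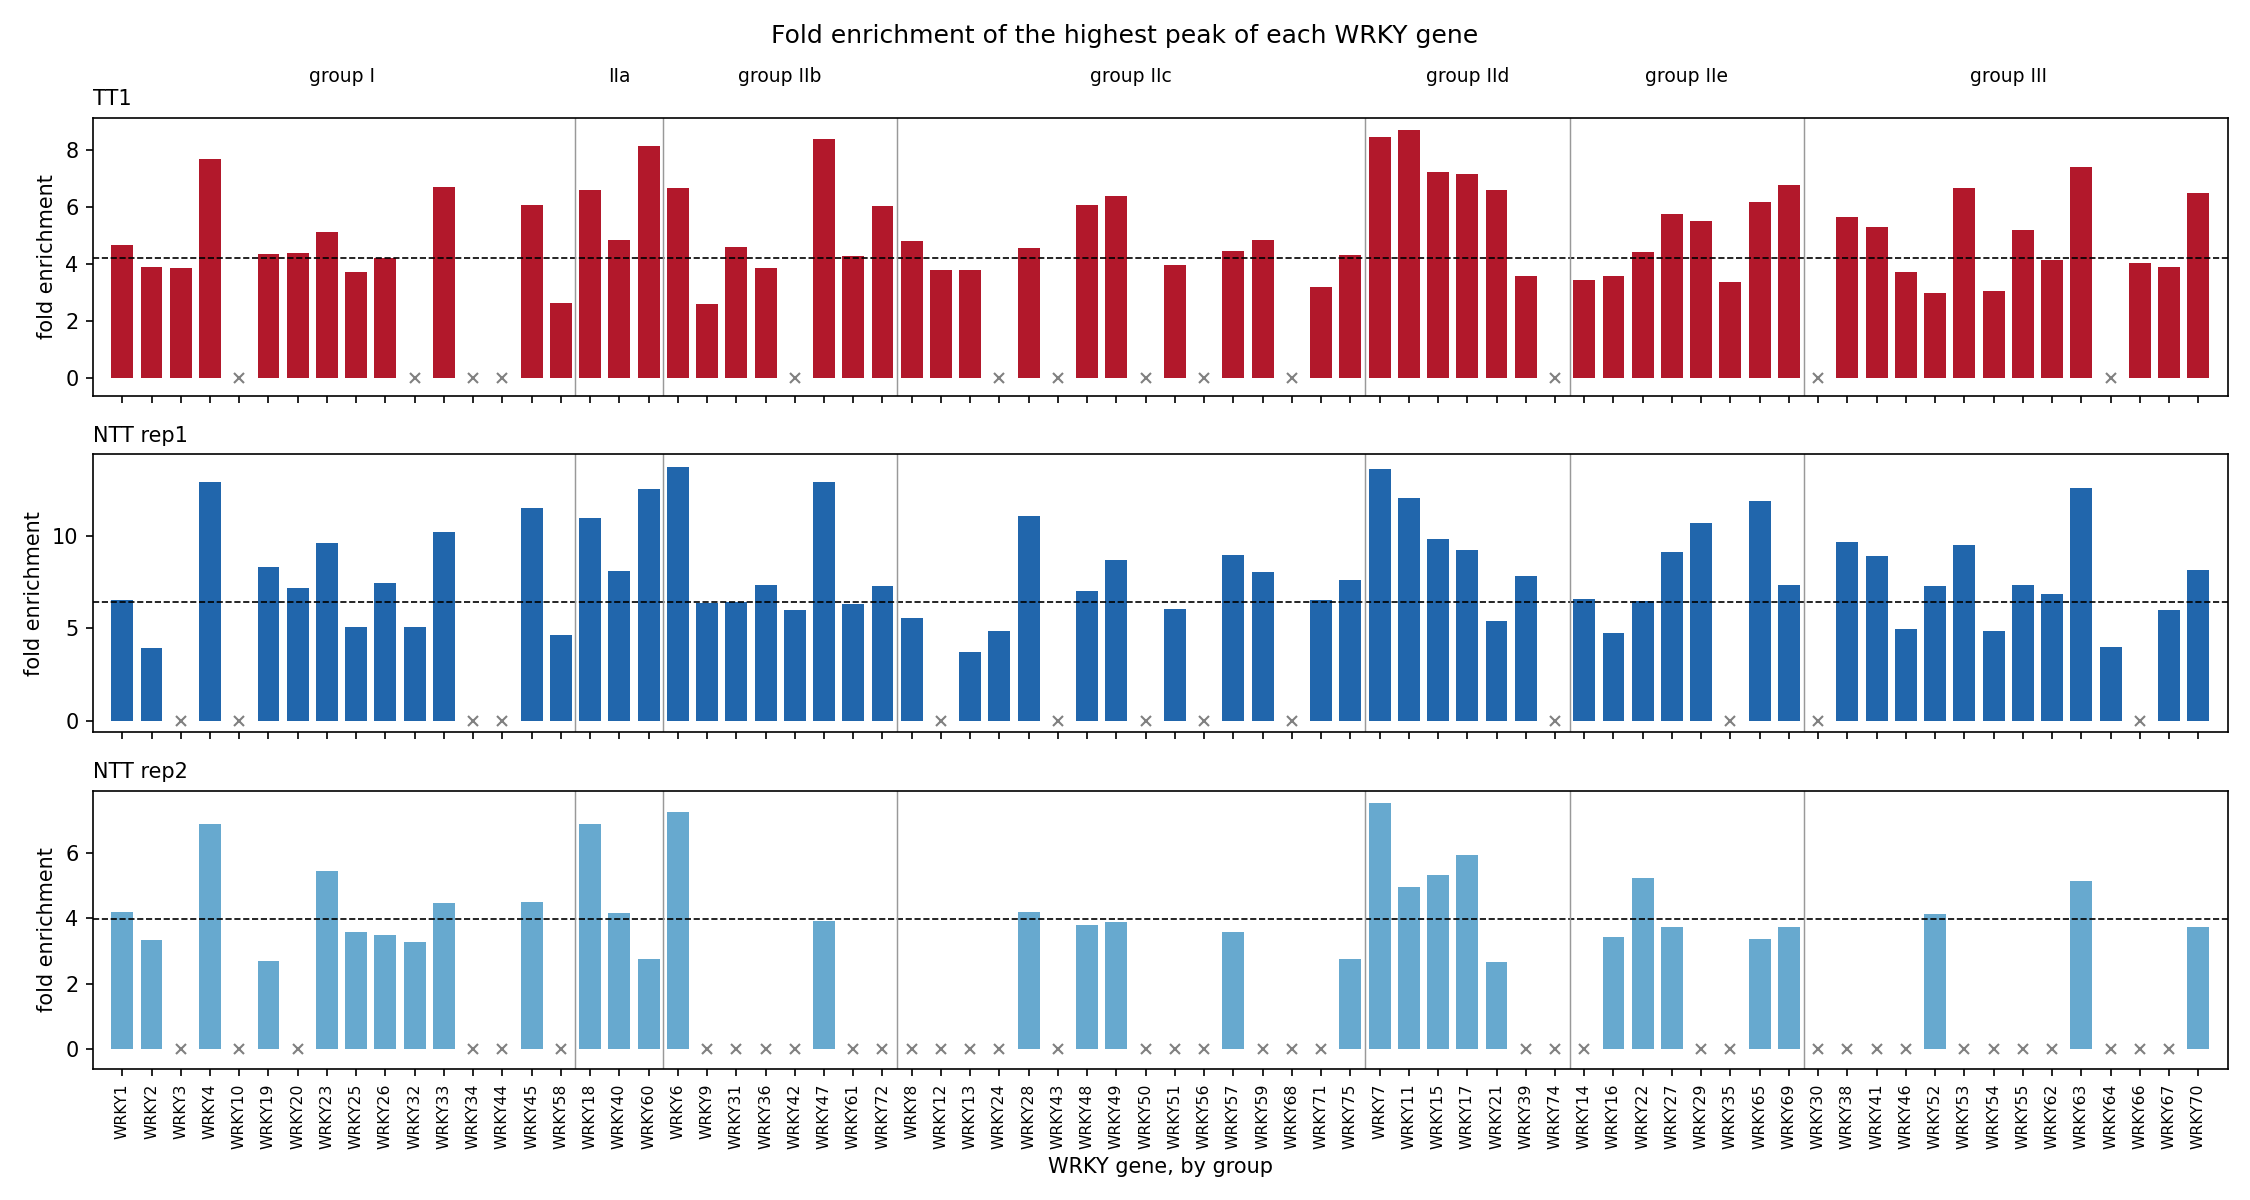
Fold enrichment of the highest peak of each of the 72 WRKY genes in each library, ordered by group. Crosses mark genes with no summit and the dashed line is the median over all bound genes of that library (4.22 in TT1, 6.44 in NTT rep1 and 3.97 in NTT rep2). The y axes differ, and the bars of WRKY7 and WRKY4 are high in all 3 libraries.

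The counts by group were least even in NTT rep2. In group IIa all 3 members were bound in all 3 libraries. Group IId had 6 of 7 members bound by TT1, 6 in NTT rep1 and 5 in NTT rep2, and group IIe had 8, 7 and 5 of 8. Group I had 12, 12 and 10 of 16 members in the same order of libraries, and group IIc had 11, 11 and 5 of 16. Group IIb had 7 of 8 members bound by TT1 and 8 in NTT rep1, but 2 in NTT rep2. Group III was similar, with 12 of 14 members bound by TT1, 12 in NTT rep1 and 3 in NTT rep2. Thus groups IIb, IIc and III had the smallest shares of members bound in NTT rep2, and 4 members of IIc were bound in no library. With WRKY23 placed in group IIc, group I had 11, 11 and 9 of 15 members and group IIc had 12, 12 and 6 of 17.

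When each list was reduced to its 7447 best peaks by −log10 q, as many as NTT rep2 holds, TT1 bound 47 members and NTT rep1 bound 41, against 25.1% of all genes in each. Group III then had 9, 8 and 3 bound members in TT1, NTT rep1 and NTT rep2, and group IIb had 5, 5 and 2. Group I had 11, 8 and 10. In NTT rep2 the counts of groups III, IIb and IIc were near the 26.8% of all genes bound there, and nothing particular to these groups can be read from them. The difference between groups was not tested, since each group holds few genes and NTT has 2 libraries.

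**Figure D3:**
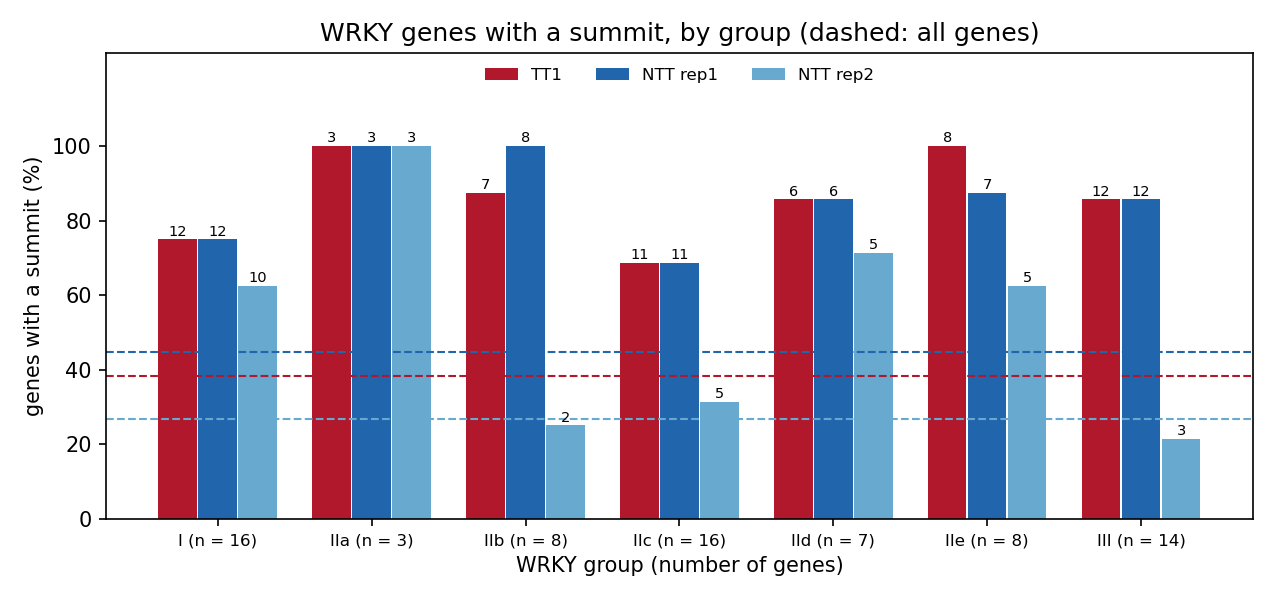
Percent of the members of each WRKY group with a summit in TT1, NTT rep1 and NTT rep2, with the number of bound genes above each bar. Dashed lines give the percent of all genes bound in the library of that color (38.3, 44.7 and 26.8%), and groups IIb and III fall below the line in NTT rep2 alone.

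Of the members, 23 (31.9%, against 12.1% of all genes) were bound by TT1 and in NTT rep1 but not in NTT rep2. These were WRKY20 and WRKY58 of group I, WRKY9, WRKY31, WRKY36, WRKY61 and WRKY72 of IIb, WRKY8, WRKY13, WRKY51, WRKY59 and WRKY71 of IIc, WRKY39 of IId, WRKY14 and WRKY29 of IIe, and WRKY38, WRKY41, WRKY46, WRKY53, WRKY54, WRKY55, WRKY62 and WRKY67 of III. In NTT rep1 alone were WRKY24, WRKY42 and WRKY64, which make 4.17% of the members against 8.13% of all genes. No member was bound in NTT rep2 alone, against 1.46% of all genes, or by TT1 and in NTT rep2 without NTT rep1, against 0.907%.

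Binding by TT1 without NTT, or in both NTT libraries without TT1, was rare in the family and among all genes alike. TT1 alone had a summit at 4 members (5.56%), against 5.09% of all genes, which is near the background. The 4 peaks were of moderate height. WRKY66 of group III had a fold enrichment of 4.04 at −297 bp, and WRKY3, which acts in resistance to necrotrophic fungi, had 3.89 at −1327 bp. WRKY12, a repressor of secondary wall formation in stem pith, had 3.80 at −1769 bp, and WRKY35 had 3.39 at 3019 bp, near its end. The nearest start site was that of TPK2 for the WRKY12 summit and of RALFL20 for the WRKY35 summit. WRKY32 was the only member bound in both NTT libraries without TT1 (1.39%, against 4.22% of all genes), with 5.06 at 232 bp in NTT rep1 and 3.26 at 68 bp in NTT rep2.

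At least 1 library had a summit at 87.5% of the members, against 52.1% of all genes. In 9 members no summit was found in any library. These were WRKY10 (MINI3, a regulator of endosperm growth), WRKY34, which acts in pollen, and WRKY44 (TTG2) in group I, WRKY43, WRKY50, WRKY56 and WRKY68 in IIc, WRKY74 in IId and WRKY30 in III. TTG2 controls trichome growth and, like TT1, tannin formation in the seed coat. The median distance to the next gene upstream was 1918 bp for these 9, against 2970 bp for the whole family. They averaged 0.778 W-boxes in the 1 kb upstream of the start site, from 0 at WRKY34 to 3 at WRKY30. The average was 1.94 for the 32 members bound in all 3 libraries, 1.69 for the whole family and 1.21 for all genes. Over all genes it was 1.11 for those bound in no library and 1.35 for those bound in all 3. The difference was not tested.

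Group IId proteins bind calmodulin, and WRKY7, WRKY11 and WRKY17 are known as negative regulators of basal resistance to *Pseudomonas syringae*. These 3 genes and WRKY15 of the same group were among the 8 members with the best mean percentile. WRKY7 had the best mean percentile of all members, 99.5. Its highest peak had a fold enrichment of 8.44 in TT1 at 1968 bp, 13.6 in NTT rep1 at 198 bp and 7.52 in NTT rep2 at 2024 bp. Both sites were present in every library, since TT1 also had 5.99 at 188 bp, NTT rep1 had 12.4 at 1900 bp and NTT rep2 had 6.37 at 213 bp. The first site lay in the 5′ UTR and the second at the 3′ end of the gene, in the 3′ UTR or the last coding part.

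WRKY11 had 3 sites in common. The highest peak was 8.70 in TT1 at 1642 bp, 12.05 in NTT rep1 at 408 bp and 4.97 in NTT rep2 at 1570 bp. The upstream site printed above had 6.36 in TT1 at −681 bp, 6.07 in NTT rep1 at −693 bp and 3.27 in NTT rep2 at −682 bp, so that its 3 summits spanned 12 bp. WRKY17 showed the same layout of an upstream, a 5′ and a 3′ site. Its highest peaks were 7.17 in TT1 at 1694 bp, 9.25 in NTT rep1 at 10 bp and 5.94 in NTT rep2 at 1732 bp. The upstream site of WRKY17 had 3.83 in TT1 at −1103 bp, 7.71 in NTT rep1 at −1139 bp and 3.05 in NTT rep2 at −1105 bp. WRKY7, WRKY11 and WRKY17 thus all had summits of every library both near the start and near the end of the gene.

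WRKY15, which acts in cell expansion and the response to salt stress, had fold enrichments of 7.22 in TT1 at −1190 bp, 9.81 in NTT rep1 at −1216 bp and 5.31 in NTT rep2 at −1202 bp. A second site just upstream of its start site was also shared. WRKY21 had a single site in the 5′ UTR with 6.61, 5.41 and 2.66 in TT1, NTT rep1 and NTT rep2, at 213, 189 and 218 bp. Its percentile was 93.0 in TT1 but 1.5 in NTT rep2, so that the position recurred while the rank did not. WRKY39 was bound by TT1 and in NTT rep1, and WRKY74 was not bound.

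The 3 proteins of group IIa, WRKY18, WRKY40 and WRKY60, bind each other and act together in defence and in abscisic acid (ABA) responses. WRKY18 had 3 sites shared by all libraries, at mean positions of −1243, −651 and 473 bp. Its fold enrichment at the most distant shared site was 6.60 in TT1, 8.63 in NTT rep1 and 6.89 in NTT rep2. The site at −651 bp, printed above, had 5.98, 8.52 and 4.11 in the same order of libraries. WRKY60 had a single site with summits at −629, −634 and −605 bp and fold enrichments of 8.15 in TT1, 12.5 in NTT rep1 and 2.75 in NTT rep2. This put it at percentiles of 99.0, 98.5 and 2.6, so that one of the highest sites of TT1 and NTT rep1 was among the lowest of NTT rep2. WRKY40 had 4.84 in TT1 at −783 bp, 8.11 in NTT rep1 at −250 bp and 4.16 in NTT rep2 at −216 bp. The summits of TT1 and NTT lay apart, but the broad TT1 peak covered both NTT summits.

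In group IIb, WRKY6 and WRKY47 were bound in all 3 libraries. WRKY6 acts in senescence and in responses to low phosphate and boron. The upstream site of WRKY6 with 3 W-boxes had a fold enrichment of 5.81 in TT1 at −1167 bp, 13.7 in NTT rep1 at −1136 bp and 7.26 in NTT rep2 at −1104 bp. The peak in NTT rep1 was the highest of any member in that library. A second site near the start had 6.67 in TT1 at 132 bp, 9.44 in NTT rep1 at 198 bp and 3.73 in NTT rep2 at 191 bp. WRKY47 had 8.39 in TT1 at −629 bp, 12.9 in NTT rep1 at −669 bp and 3.92 in NTT rep2 at −693 bp, with 1 W-box at each summit. The other 6 members were bound in NTT rep1, and WRKY42 was the one of them without a TT1 summit.

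Group I holds WRKY33, which controls camalexin synthesis and resistance to *Botrytis*, WRKY4, a close relative of WRKY3, and the heat-responsive WRKY25 and WRKY26. WRKY4 had the second best mean percentile of the family, 98.7, with 7.69 in TT1 at −614 bp, 12.9 in NTT rep1 at −567 bp and 6.90 in NTT rep2 at −569 bp. WRKY33 had 6.72 in TT1 at −1203 bp, 10.2 in NTT rep1 at −1190 bp and 4.48 in NTT rep2 at −1213 bp, but the start site nearest to these summits was that of AT2G38465. The site of WRKY33 had 4 ABRE core matches and no W-box, although its promoter has 4 W-boxes within 1 kb and lower summits lay beside some of them at −269 bp in TT1 and −97 bp in NTT rep2. WRKY23, which acts downstream of auxin in root development, had 5.14 in TT1 at −1608 bp, 9.62 in NTT rep1 at −1513 bp and 5.44 in NTT rep2 at −1522 bp. The summits of WRKY33 spanned 23 bp and those of WRKY23 spanned 95 bp.

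WRKY45, which acts in phosphate uptake, had a pair of shared sites. Its fold enrichment at the start was 6.09 in TT1 at −123 bp, 11.5 in NTT rep1 at −106 bp and 3.48 in NTT rep2 at −101 bp. At its 3′ end it was 3.37 in TT1 at 1412 bp, 11.4 in NTT rep1 at 1357 bp and 4.49 in NTT rep2 at 1361 bp. The upstream summits lay inside the neighboring gene AT3G01980, and the start site nearest to the 3′ summits was that of AT3G01960. These sites can therefore not be given to WRKY45 alone. WRKY25 had 3.75, 5.08 and 3.59 in TT1, NTT rep1 and NTT rep2, at 79, 79 and 34 bp. WRKY26 had 4.22 in TT1 at −86 bp, 7.45 in NTT rep1 at 181 bp and 3.48 in NTT rep2 at −113 bp, and its upstream summits lay inside AT5G07090.

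In group IIc, WRKY28, WRKY48, WRKY49, WRKY57 and WRKY75 were bound in all 3 libraries. WRKY49 had 6.40 in TT1 at −1059 bp, 7.76 in NTT rep1 at −1109 bp and 3.87 in NTT rep2 at −1067 bp. A second WRKY49 site at −1879 bp was found in TT1 (5.83) and NTT rep1 (8.69) at the same base. WRKY75, which acts in phosphate starvation and senescence, had 4.32 in TT1 at −1495 bp, 3.39 in NTT rep1 at −1433 bp and 2.74 in NTT rep2 at −1431 bp. Its highest peak in NTT rep1, 7.62 at 214 bp, was at another place. WRKY57, a regulator of drought tolerance and senescence, shared a 5′ site with 4.11 in TT1 at 116 bp, 3.98 in NTT rep1 at 104 bp and 3.58 in NTT rep2 at 117 bp. The highest WRKY57 peaks of TT1, 4.48 at −881 bp, and of NTT rep1, 8.95 at −1081 bp, lay upstream of this site. WRKY71, which promotes shoot branching, had 3.20 in TT1 at −1781 bp and 6.54 in NTT rep1 at −1194 bp, so that the summits lay apart.

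Group IIe holds WRKY22 and WRKY29, which act downstream of the kinase cascade started by flagellin. WRKY22 had a shared site with 4.43 in TT1 at −1050 bp, 5.39 in NTT rep1 at −1046 bp and 5.24 in NTT rep2 at −1122 bp. WRKY29 had 4 summits in each of TT1 and NTT rep1, the highest being 5.51 at 63 bp in TT1 and 10.7 at −641 bp in NTT rep1, and none in NTT rep2. WRKY27 had 5.76 in TT1 at 82 bp, 8.96 in NTT rep1 at 109 bp and 3.73 in NTT rep2 at 77 bp, all in the 5′ UTR beside the GAGA tract printed above. WRKY65 and WRKY69 were bound in all 3 libraries as well. WRKY16 (TTR1), a WRKY protein fused to an immune receptor, had low peaks of 3.59, 4.77 and 3.43 in TT1, NTT rep1 and NTT rep2. The summits of WRKY16 lay at 108 bp in TT1 and 89 bp in NTT rep2. That of NTT rep1, at −143 bp, lay inside AT5G45060 and nearest to the start site of that gene.

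Group III holds genes of salicylic acid signaling and senescence and WRKY63 (ABO3), which acts in ABA signaling and drought tolerance. WRKY63 had the fifth highest mean percentile of the family, 94.4. At its distant site the fold enrichment was 7.41 in TT1 at −1269 bp, 10.7 in NTT rep1 at −1262 bp and 5.15 in NTT rep2 at −1329 bp. The site near its start had 5.66 in TT1 at −254 bp, 12.6 in NTT rep1 at −163 bp and 4.45 in NTT rep2 at −174 bp. No W-box lay within 100 bp of any of these 6 summits. Further summits in NTT rep1 alone, with 9.26 at −1998 bp and 5.59 at 550 bp, did have W-boxes within 100 bp. The broad TT1 peak with its summit at −254 bp also covered the place of the summit at 550 bp. The 1 kb upstream of WRKY63 held 1 W-box, and the paper names ABO3 as a WRKY gene with W-boxes whose promoter WIP proteins bind. WRKY64 and WRKY67, its neighbors on chromosome 1, had lower peaks, with 4.02 in NTT rep1 for WRKY64, and 3.92 in TT1 and 6.005 in NTT rep1 for WRKY67. The authors kept uniquely mapped reads only, and whether similarity between these neighbors lowered their peaks was not tested.

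WRKY70, a node between salicylic and jasmonic acid signaling, had 6.50 in TT1 at −888 bp, 8.14 in NTT rep1 at −943 bp and 3.73 in NTT rep2 at −1002 bp, with no W-box at any of them. WRKY53, a regulator of leaf senescence, had 6.68 in TT1 at −1307 bp and 9.50 in NTT rep1 at −1354 bp. WRKY46 had 3.73 in TT1 at 1134 bp, nearer to the start site of SDH8, and 4.97 in NTT rep1 at −408 bp, and WRKY54 had 3.08 at 63 bp and 4.84 at 59 bp. The genes WRKY38 and WRKY62, whose proteins bind the histone deacetylase HDA19, were bound by TT1 and in NTT rep1. WRKY38 had 5.64 in TT1 at −2 bp and 9.69 in NTT rep1 at 22 bp, while WRKY62 had 4.16 in TT1 at −150 bp and 6.86 in NTT rep1 at −1436 bp. None of WRKY38, WRKY46, WRKY53, WRKY54 and WRKY62 had a summit in NTT rep2. WRKY52 (RRS1) works as an immune receptor pair with RPS4, and the summits upstream of WRKY52, with 3.004 in TT1, 7.29 in NTT rep1 and 4.13 in NTT rep2, lay inside RPS4 and nearer to its start site.

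TT1 and NTT summits fell close together at most members, as they did at genes at large. The highest TT1 summit lay a median of 49 bp from the nearest summit of NTT rep1 over the 55 members bound in both, with 37 of them (67.3%) within 100 bp and 5 over 500 bp apart. Over all genes bound in both the median was 30 bp, with 78.8% within 100 bp. To NTT rep2 the median was 53 bp over 32 members, with 84.4% within 100 bp, against 37 bp and 74.1% over all genes. The highest summit of NTT rep2 lay a median of 29 bp from the nearest one of NTT rep1 over 33 members, with 81.8% within 100 bp, against 25 bp and 85.9% over all genes.

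When summits of different libraries less than or equal to 100 bp apart were joined, the 63 bound members held 171 sites, 37 of them in all 3 libraries and spread over 26 genes. Group IId, with 7 genes, had 11 of the 37. Groups I, IIa, IIb, IIc, IIe and III had 7, 4, 3, 4, 4 and 4. Summits were not joined into sites over all genes, so these counts cannot be read as particular to the family or to a group. The 6 members bound in all 3 libraries whose summits did not meet this distance were WRKY1, WRKY2, WRKY16, WRKY26, WRKY40 and WRKY48. Of the other sites, 39 were in TT1 and NTT rep1 only, 54 in NTT rep1 only, 29 in TT1 only and 5 in NTT rep2 only.

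**Figure D4:**
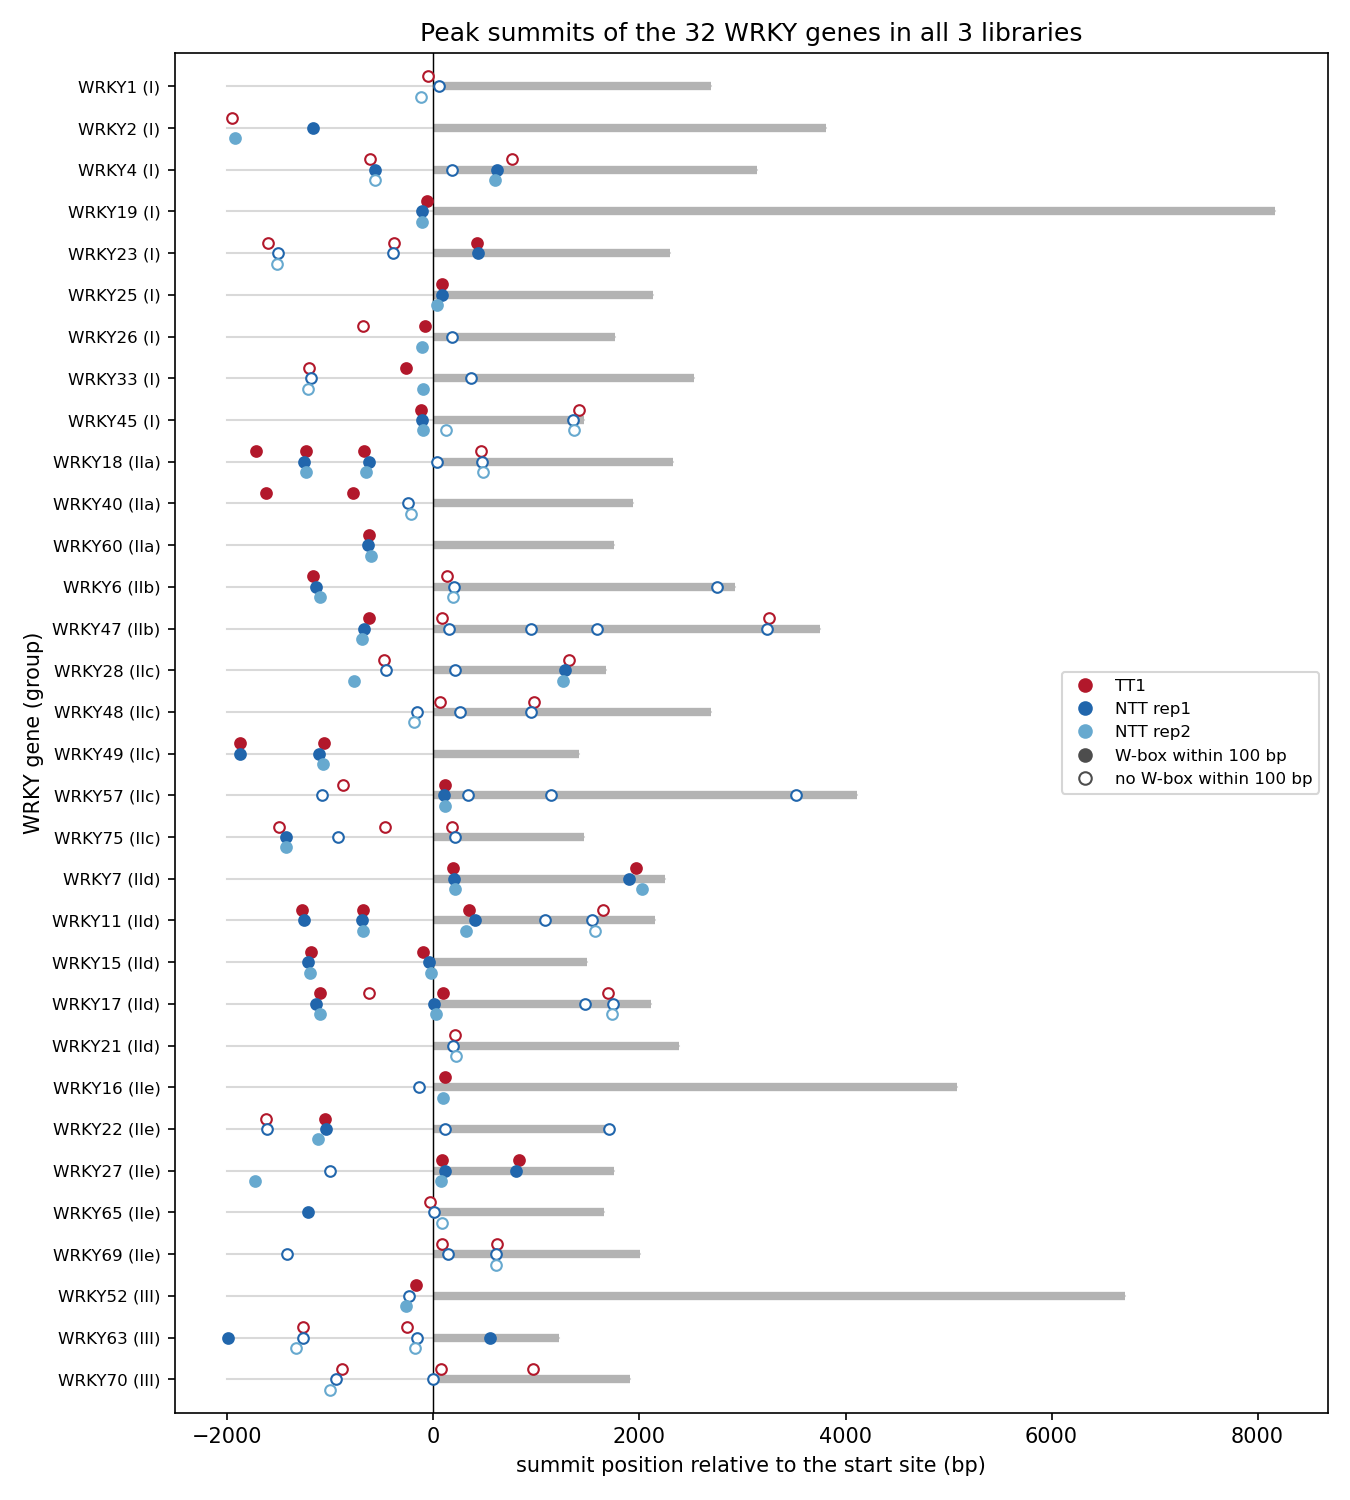
Positions of all summits, in bp from the start site, at the 32 WRKY genes bound in all 3 libraries, with the gene body as a thick bar. Each row has TT1 above NTT rep1 above NTT rep2, and filled points have a W-box within 100 bp. The 3 libraries line up in WRKY60 at −629 to −605 bp and in WRKY11, WRKY17 and WRKY18 at several sites, while in WRKY40 the TT1 summits lie apart from the NTT summits.

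In position along the gene the members were like other genes. Of the summits in WRKY windows, 62.4% of 109 in TT1, 52.6% of 133 in NTT rep1 and 59.2% of 49 in NTT rep2 were upstream of the start site. The 5′ UTR held 19.3, 21.1 and 26.5% of them in the same order and coding exons 11.9, 17.3 and 10.2%. From the start site to the gene end lay 37.6, 47.4 and 40.8% of the members' summits, against 37.3, 43.2 and 43.5% over all genes. In 9, 13 and 4 cases the summit was nearer to the start site of another protein-coding gene.

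The W-box was more frequent at summits of WRKY genes than at summits of genes at large. A TTGACC or TTGACT lay within 100 bp of 50 of 109 TT1 summits in WRKY windows, 45.9% (95% Wilson interval 36.8 to 55.2), against 32.1% of all TT1 summits in gene windows. NTT rep1 had 52 of 133, 39.1% (31.2 to 47.6), against 27.7%. NTT rep2 had 30 of 49, 61.2% (47.2 to 73.6), against 26.8%. The intervals cover counting error alone, treat neighboring summits as independent and do not test this difference. In 201 bp windows upstream of the start site, 24.4% of all genes held the motif. Counted without regard to peaks, the 1 kb upstream of WRKY genes held 1.69 W-boxes on average, against 1.21 at all genes.

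The difference was largest upstream. Among upstream summits, 50.0% in TT1, 50.0% in NTT rep1 and 69.0% in NTT rep2 had a W-box at WRKY genes, against 33.1, 29.2 and 27.6% at all genes. From the start site to the gene end the shares were 39.0, 27.0 and 50.0%, against 30.3, 24.7 and 24.3%. The sites shared by all 3 libraries held a W-box in 22 of 37 cases (59.5%). Those of 2 libraries held one in 17 of 46 (37.0%) and those of 1 library in 30 of 88 (34.1%). Among the latter, sites of NTT rep2 only held one in 3 of 5. Sites were not counted over all genes, so these shares cannot be read as particular to the family. By group, a W-box lay within 100 bp of the mean position in 8 of 11 shared sites of IId. The same was true of 4 of 4 of IIc and 3 of 4 of IIa. At the IIc sites of WRKY28 and WRKY75, the TT1 summit itself had none within 100 bp. None of the 4 shared sites of group III, a pair in WRKY63 and one each in WRKY52 and WRKY70, had a W-box within 100 bp of its mean position. Around the single summits of the WRKY52 site, however, TT1 and NTT rep2 had 1 each within 100 bp.

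The GAGA repeat and the ABRE core showed no such excess at WRKY genes. GAGAGAG lay at 18.3% (12.2 to 26.6) of the members' TT1 summits, 20.3% (14.3 to 27.9) of those in NTT rep1 and 20.4% (11.5 to 33.6) of those in NTT rep2, against 17.5, 23.7 and 28.1% over all genes. It was found downstream of the start site rather than upstream, in 34.1 against 8.82% of the members' TT1 summits. The same held over all genes, with 26.2 against 12.4%. Upstream, the GAGA share of the members was 8.82, 8.57 and 3.45% in TT1, NTT rep1 and NTT rep2, below the 12.4, 16.5 and 20.9% of all genes, although in NTT rep2 it rests on 1 of 29 summits. The ABRE core lay at 27.5% (20 to 36.6), 20.3% (14.3 to 27.9) and 36.7% (24.7 to 50.7) of the members' summits in TT1, NTT rep1 and NTT rep2, against 29, 25 and 34.2% over all genes. Within 50 bp of the summit the GAGA share was 7.34, 12 and 10.2%, against 11.9, 17.9 and 19.8% over all genes, and the ABRE share was 14.7, 11.3 and 12.2%, against 17, 13.4 and 21.4%. In 201 bp upstream windows of all genes, 6.35% held GAGAGAG and 19.9% held ACGTG. A match says that the letters are there and not that the factor binds them.

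**Figure D5:**
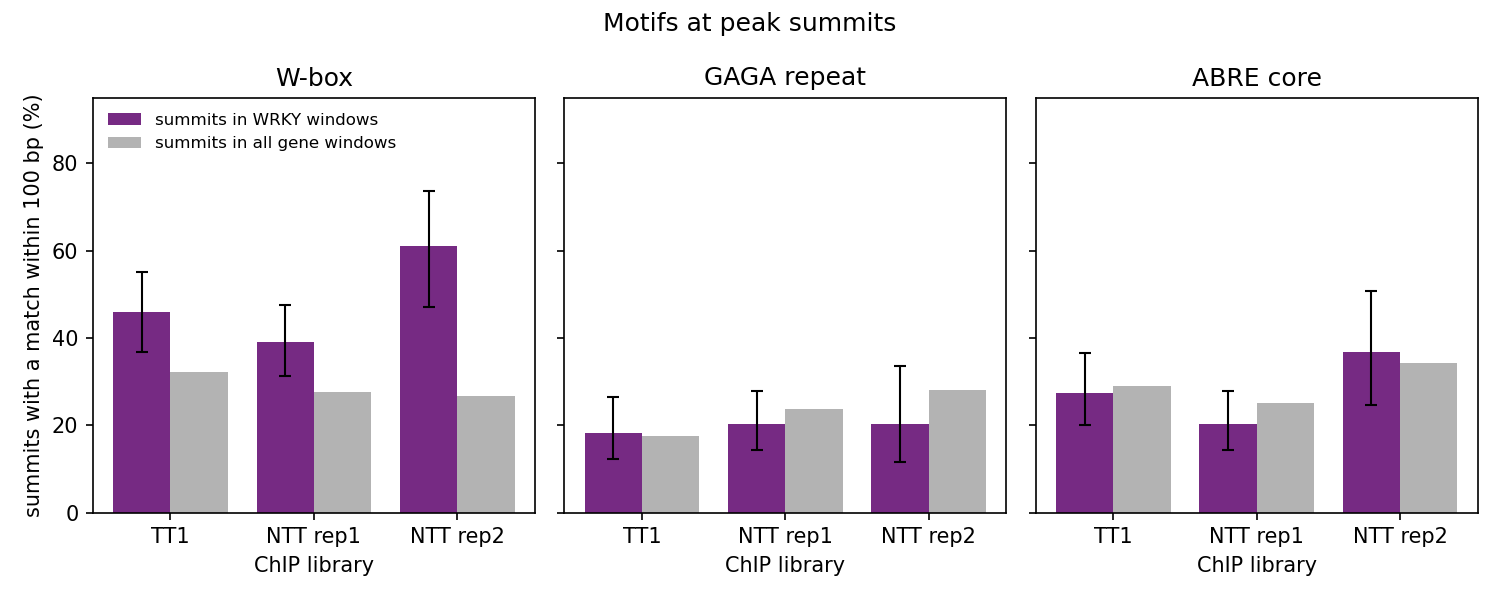
Percent of summits with a W-box, a GAGA repeat or an ABRE core within 100 bp, for summits in WRKY windows (error bars, 95% Wilson intervals) and in the windows of all genes, by ChIP library. The W-box stands at 45.9, 39.1 and 61.2% at WRKY genes and at 32.1, 27.7 and 26.8% at all genes. The GAGA repeat stands at 18.3, 20.3 and 20.4% against 17.5, 23.7 and 28.1%, and the ABRE core at 27.5, 20.3 and 36.7% against 29, 25 and 34.2%. The intervals treat neighboring summits as independent and do not test these differences.

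Genes that act with WRKY proteins were looked up from a list of 27 kinases, partners and known targets, of which 26 were found in the annotation. TT1 had a summit at 20 of the 26, NTT rep1 at 22, NTT rep2 at 11 and all 3 libraries at 11, beside 38.3, 44.7, 26.8 and 20.2% of all genes. Of 8 genes of the kinase cascade that activates WRKY proteins, 7 were bound by TT1, 7 in NTT rep1 and 6 in NTT rep2, beside the same 38.3, 44.7 and 26.8% of all genes. MEKK1, at the top of the cascade, had 7.07, 12.1 and 3.76 in TT1, NTT rep1 and NTT rep2, at 31, 73 and 56 bp. MPK3, which phosphorylates WRKY33, had 7.78, 11.1 and 4.36 near its 3′ end, at 2209, 2279 and 2270 bp. All 3 libraries had a summit at 6 of the 8 genes, and MKK2 had none.

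Of 7 VQ proteins and other partners, 4 were bound by TT1, 6 in NTT rep1 and 3 in NTT rep2, beside 38.3, 44.7 and 26.8% of all genes. SIB1, which binds WRKY33, had 8.93 in TT1, 9.42 in NTT rep1 and 4.02 in NTT rep2, at 253, 246 and 211 bp. Of 11 known targets of WRKY proteins, 9 were bound by TT1, 9 in NTT rep1 and 2, SAG12 and ORA59, in NTT rep2. Beside the same shares of all genes, the count in NTT rep2 was no higher than the background of 26.8%. The camalexin gene PAD3, a target of WRKY33, had 4.03 in TT1 at −51 bp and 7.53 in NTT rep1 at −1843 bp.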

How the data were processed

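The series has 6 libraries, 3 from immunoprecipitated chromatin and 3 inputs, and samples were grouped by their labels. The authors mapped reads with BWA to TAIR10, kept uniquely mapped reads with SAMtools, discarded duplicates by means of Picard and ran MACS2 2.1.2 on each ChIP library, with replicates not pooled. In the deposited lists the authors' score is 10 times the −log10 q-value without decimals. The deposited fold enrichment is a ratio of ChIP to local background from the authors' peak calling, and the −log10 p-values and q-values are those of MACS2. Such values move with read depth, which the lists do not give. All peaks had a −log10 q of at least 9.

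Summits were assigned to nuclear protein-coding genes of RefSeq TAIR10.1, after a check that no peak ran beyond a chromosome end. Calls were made in Python 3.11.15 with numpy 2.4.6 and scipy 1.17.1 and figures with matplotlib 3.10.9. Both strands were searched for motifs, up to 100 bp from a summit. Assignment and search were tested on simulated data. No test between groups was made, because peak lists hold no counts and TT1 has 1 library. The members, the grouping and the list of related genes were chosen with earlier results of these data known. Values in every library are given for the 12 members with the best mean percentile among those bound in all 3 libraries, the up to 5 best members of TT1 alone and of NTT alone, group IIa and a set of well-studied members. WRKY16, WRKY21, WRKY27, WRKY49, WRKY52, WRKY64, WRKY67 and the related genes with values were named after these were seen. Alternatives were a stricter −log10 q of 20, lists of equal length, other gene windows, overlap in place of summits, the nearest start site, single NTT libraries, a 50 bp motif window and the W-box core. PHT1;1 of the list of related genes found no match and was not used.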

Additional observations from a re-analysis of the deposited data

How the results depend on the processing

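The counts of bound members in TT1 and NTT rep1 stayed within 1.5 times of 59 under every alternative tried. With a −log10 q of at least 20, NTT rep2 bound 20 members, against 16.6% of all genes, and all 3 libraries bound 20, against 13.6%. With upstream summits only, all 3 libraries bound 21 members, against 11.6% of all genes. Leaving out either NTT library in turn gave 32 to 55 members for TT1 with the remaining one and 33 to 59 members for NTT, the higher values being those without NTT rep2. The values over all genes rose as well. Of 27444 genes, TT1 with the remaining library bound 5797 without NTT rep1 and 8872 without NTT rep2. For NTT the shares of all genes were 26.8 and 44.7% in the same order. Within 50 bp of the summit, the W-box share at WRKY genes was 31.2% in TT1, 21.8% in NTT rep1 and 36.7% in NTT rep2, against 16.6, 13.2 and 13.5% over all genes, and the GAGA share was 7.34, 12 and 10.2%. With the core TTGAC the W-box share was 62.4% in TT1 and 54.1% in NTT rep1, against 46.9 and 42%. The narrower window and the shorter motif change these shares by construction. Counts per group with lists of equal length and the split by distance to the next gene were chosen after seeing the data. No paired analysis was possible because the replicate numbers of the NTT libraries are shared only with inputs, which have no peak list here.

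Read depth is not in the peak lists and was not used here, so that the short list of NTT rep2 and weaker NTT binding in that sample cannot be told apart, and 1 TT1 library gives no replicate check. Binding was measured with the fusions driven in whole seedlings. Inputs entered only through the authors' peak calls.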
